A study of Mus musculus with 8 samples.

Results

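Genes of the Serpina3 cluster and of the acute-phase response, 10 in all, were followed in RNA of tumor endothelial cells. They comprise 4 paralogs of the cluster on mouse chromosome 12 (Serpina3f, Serpina3g, Serpina3i and Serpina3n) and 6 acute-phase genes (Saa3, Lbp, Lcn2, Hp, Orm1 and Cp). They were picked by symbol from the 20057 genes of the table, with the difference between the treatment groups already known, so that difference is described for them and not tested. All 10 symbols are in the table. Of these, 9 passed a limit on low values, a larger group mean above 10 normalized reads, and Orm1 did not.

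The cells came from B16.F10 melanomas grown under the skin of male C57BL/6 mice that were 8 weeks old and had received 250000 melanoma cells. Antibody was injected beside the tumor 2 times, on days 13 and 16, at 30 µg each: 4 mice received the agonistic CD40 mAb FGK4.5, which activates the receptor CD40, and 4 mice the rat IgG2a antibody 2A3 as isotype control. The labels place the sort 1 day after the last injection and the supplementary methods name 1 and 4 days. About 100000 live cells per tumor that lacked the leukocyte marker CD45 and carried the endothelial marker CD31 were sorted, and 10 ng of their RNA entered each library. The libraries are called by their mouse: 5N, 6L, 6R and 10N with agonistic CD40 mAb, and 5L, 7N, 8N and 9L with isotype control. Each library stands for 1 mouse.

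The deposited values are read counts per gene that the authors divided by a factor per library, called normalized reads here. The reads on genes, recovered from the steps between low values, ranged from 12512772 to 64938728 with agonistic CD40 mAb and from 2971689 to 35583141 with isotype control, so 1 read was worth between 0.118 and 2.44 normalized reads. Library 5L was the shallowest. It was the lowest of the 8 libraries for 9 of the 9 members past the limit, against 29.7% of the 12969 genes tested. Members picked with the treatment difference known tend to be lowest in a control library, so this count carries no weight of its own. Among control libraries alone, 5L was the lowest for 39.1% of the genes tested. As 5L was the shallowest, the values of the members are given with and without it. The reads carry no molecular identifiers, and their number limits counting error only. The sorted cells expressed all 15 endothelial markers listed, among them Pecam1, Cdh5 and Kdr, and also markers of fibroblasts, mural cells and melanoma cells. In RNA from many cells, fewer cells of a type and less RNA per cell cannot be told apart.

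Serpins are protease inhibitors that offer a reactive loop as bait and trap the protease that cuts it. The single human gene SERPINA3 corresponds to a tandem array of paralogs in the mouse, whose members differ in that loop. Serpina3g has been described in activated leukocytes and Serpina3n in reactive astrocytes. Acute-phase proteins are made in the liver under IL-6, IL-1 and TNF during inflammation, and several of them, including Saa3 and Lcn2, are also made outside the liver. Transcription of these genes is known to draw on STAT, NF-κB and C/EBP factors.

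The 14 Serpina3 genes and pseudogenes of the GENCODE M21 annotation (GRCm38) lie within 301.6 kb, at chr12:104112724-104414329, 11 of them on the plus strand. Serpina3f (chr12:104214544-104221129), Serpina3g (chr12:104236245-104241939) and Serpina3i (chr12:104263122-104269372) fall within 54.8 kb, and Serpina3n (chr12:104406729-104414329) begins 137 kb further on. The coding sequences were close to each other: Serpina3f shared 91.2% of aligned bases with Serpina3i, 86.8% with Serpina3g and 84.6% with Serpina3n. The annotated coding sequence of Serpina3g is short, at 744 bases against 1335 in Serpina3f, so its identity covers fewer bases. Reads may therefore be assigned to the wrong paralog in part. Of 50-base windows of the transcripts, 10.6% of those of Serpina3f, 15.5% of Serpina3g, 15.9% of Serpina3i and 6.90% of Serpina3n also occur in another gene. Serpina3f shared 6.03% of its windows with Serpina3g, and Serpina3g shared 8.89% with the pseudogene Serpina3h.

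The 4 promoters are shown because the paralogs differed in level and in contrast between groups, and that of Saa3 because it had the most normalized reads of the acute-phase members. Each run is the 250 bases before the transcription start in RefSeq (GRCm38.p6), 5′ to 3′ on the strand of the gene. Capitals mark matches, on either strand, to TTCNNNGAA (the GAS motif that STAT dimers bind), TTTCNNTTTC (ISRE, bound by IRF and STAT complexes), GGGNNTTTCC (κB, bound by NF-κB) and TTGCNNAA (bound by C/EBP). The coordinates are chr12:104214294-104214543 for Serpina3f (plus strand, the first of its 2 starts), chr12:104235897-104236146 for Serpina3g (plus), chr12:104262872-104263121 for Serpina3i (plus), chr12:104406458-104406707 for Serpina3n (plus) and chr7:46715677-46715926 for Saa3 (minus).
Serpina3f: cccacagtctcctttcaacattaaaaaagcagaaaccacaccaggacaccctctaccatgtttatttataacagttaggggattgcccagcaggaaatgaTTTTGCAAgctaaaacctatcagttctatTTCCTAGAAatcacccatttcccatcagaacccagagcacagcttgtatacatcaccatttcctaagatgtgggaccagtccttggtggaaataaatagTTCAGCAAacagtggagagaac
Serpina3g: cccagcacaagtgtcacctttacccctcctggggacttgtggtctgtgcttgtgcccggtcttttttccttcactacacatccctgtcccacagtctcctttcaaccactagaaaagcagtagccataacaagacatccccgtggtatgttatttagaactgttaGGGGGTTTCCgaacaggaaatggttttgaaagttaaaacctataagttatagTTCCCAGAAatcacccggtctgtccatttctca
Serpina3i: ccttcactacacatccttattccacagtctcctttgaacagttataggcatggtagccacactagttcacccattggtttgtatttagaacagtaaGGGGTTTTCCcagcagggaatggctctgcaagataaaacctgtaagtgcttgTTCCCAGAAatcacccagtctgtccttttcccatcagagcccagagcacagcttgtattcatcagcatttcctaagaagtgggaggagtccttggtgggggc
Serpina3n: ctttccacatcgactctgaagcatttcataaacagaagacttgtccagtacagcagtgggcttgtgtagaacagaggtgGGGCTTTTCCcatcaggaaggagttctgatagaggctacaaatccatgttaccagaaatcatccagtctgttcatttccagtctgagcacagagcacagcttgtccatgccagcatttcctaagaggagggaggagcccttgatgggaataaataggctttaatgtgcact
Saa3: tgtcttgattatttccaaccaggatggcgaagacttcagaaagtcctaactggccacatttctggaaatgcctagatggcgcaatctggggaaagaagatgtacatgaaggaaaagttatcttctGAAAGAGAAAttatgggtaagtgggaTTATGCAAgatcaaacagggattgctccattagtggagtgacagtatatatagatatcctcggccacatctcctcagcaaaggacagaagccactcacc

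A GAS match, present in 7.04% of the 32536 promoter windows of this length, was found for Serpina3f (TTCCTAGAA at -121 to -113), Serpina3g (TTCCCAGAA at -33 to -25) and Serpina3i (TTCCCAGAA at -102 to -94), and none for Serpina3n. A κB match, present in 1.4% of windows, was found for Serpina3g (GGGGGTTTCC at -85 to -76), Serpina3i (GGGGTTTTCC at -154 to -145) and Serpina3n (GGGCTTTTCC at -171 to -162). The window of Serpina3f held no κB match but 2 matches to the C/EBP letters, TTTTGCAA at -150 to -143 and TTCAGCAA at -22 to -15, which 9.57% of windows hold at least once. The Saa3 window held an ISRE match (GAAAGAGAAA at -125 to -116; 2.98% of windows) and a C/EBP match (TTATGCAA at -99 to -92). Lcn2 held a single C/EBP match, TTGCTCAA at -216 to -209, and Cp held one before the later of its 2 starts. Positions depend on the RefSeq start: the Lcn2 window lies inside the longer GENCODE gene (chr2:32384633-32388252), and the Saa3 window overlaps the first 24 bases of the GENCODE gene. The Serpina3g window ends at chr12:104236146, short of the GENCODE start at chr12:104236245, from which its matches would lie further upstream. The aligned promoter bases of Serpina3f were 82.6% identical to those of Serpina3g (161 bases), 82.2% to those of Serpina3i (219 bases) and 70.6% to those of Serpina3n (231 bases). These are matches of letters and not binding sites measured in these cells.

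The study called a gene changed when its group means differed at least 1.5-fold and p, without adjustment, was 0.05 or less. By this threshold, with p from limma, 1.28% of the 12969 genes tested were higher with agonistic CD40 mAb and 0.239% were lower (166 and 31 genes, or 149 and 63 after quantile normalization). Of the 9 members past the limit, 6 met the criteria for higher genes (Serpina3f, Serpina3g, Serpina3i, Saa3, Lbp and Lcn2) and 0 those for lower genes, counts that follow from how the genes were picked and carry no weight of their own. Serpina3i passed the limit through the treated group alone (means of 19.6 and 9.54), so its higher value decided its place among the 9. Every treated library lay above every control library for Serpina3f, Saa3, Lbp, Lcn2 and Serpina3i, and for 1.09% of all genes tested, from which nothing is read about members picked with the difference known. The log2 fold changes of the 5 acute-phase genes past the limit had a median of 0.94, beside 0.0046 over all genes tested. Without 5L that of the 5 was 0.51, and 4 members met the criteria, with Serpina3i and Lbp lost. By ratio alone, Lbp lay closest to the threshold from inside, at 1.71, and Cp from outside, at 1.45. Hp, with a ratio of 1.73, was outside it by its spread.

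**Figure D1:**
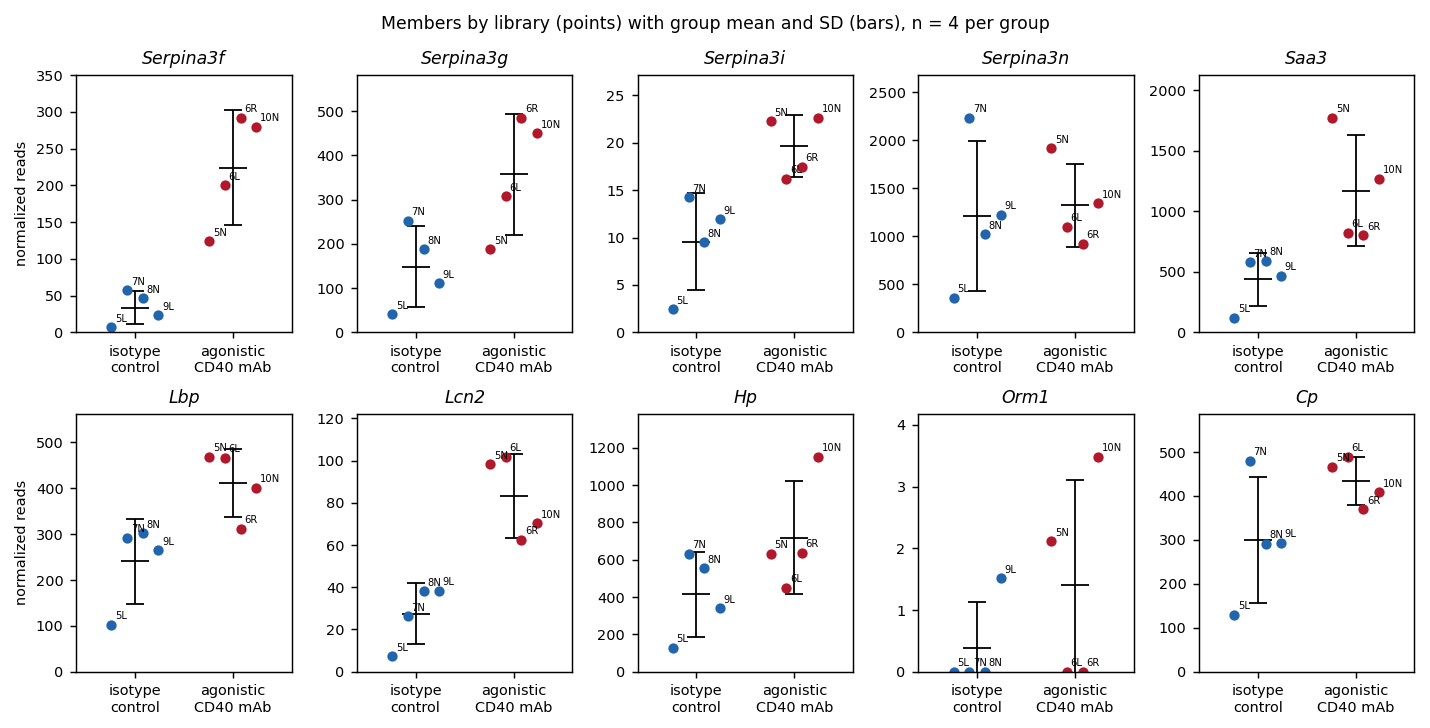
Normalized reads (vertical axes, linear, each from 0) of the 10 members in the 4 isotype control libraries (blue) and the 4 agonistic CD40 mAb libraries (red), each point 1 library, with the mean and SD of each group. Serpina3f lies between 124 and 292 in treated and between 7.33 and 57.1 in control libraries, whereas the groups of Serpina3n overlap.

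Serpina3f had the widest contrast of the members. It was at 124, 200, 292 and 280 normalized reads in 5N, 6L, 6R and 10N, and at 7.33, 57.1, 46.3 and 23.2 in 5L, 7N, 8N and 9L. The lowest treated library was above the highest control library. The means were 224 ± 78.4 and 33.5 ± 22.4 (SD, n = 4 each), a ratio of 6.69 and a log2 fold change of 2.97 (SE 0.54). The control values rest on few reads, 3, 24, 34 and 107 in that order of libraries. Without 5L the ratio was 5.31.

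Serpina3g, also known as Spi2A and described as an inhibitor of lysosomal cathepsins, was at 188, 308, 486 and 449 with agonistic CD40 mAb and at 41.5, 252, 188 and 111 with isotype control. Its groups overlapped, since the treated library 5N was below the control library 7N. The means were 358 ± 137 and 148 ± 91.6 (SD, n = 4 each), a ratio of 2.41 and a log2 fold change of 1.45 (SE 0.50). Without 5L the ratio was 1.95.

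Serpina3i, the least expressed of the 4 paralogs, was at 22.3, 16.2, 17.4 and 22.6 against 2.44, 14.3, 9.53 and 11.9. The groups did not overlap, but 5L holds a single read of this gene, and 7N and 8N hold 6 and 7. The ratio of means was 2.06 (log2 fold change 1.15, SE 0.50) and fell to 1.65 without 5L. Its place past the threshold was lost when any of 5N, 6L, 6R, 10N, 5L or 8N was left out.

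Serpina3n, a secreted inhibitor and the dominant paralog here, was at 1920, 1101, 922 and 1347 with agonistic CD40 mAb and at 359, 2236, 1022 and 1223 with isotype control. The highest of all 8 values belonged to a control library, 7N, and the lowest to another, 5L. The means were 1323 ± 434 and 1210 ± 777 (SD, n = 4 each), a ratio of 1.09, and the log2 fold change of 0.35 (SE 0.45) was within its error. Without 5L the ratio was 0.885 and the log2 fold change -0.15. A gene 137 kb from Serpina3i in the same cluster was thus at about the same mean in both groups in these libraries.

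Serpina3f and Serpina3g moved together from library to library, and the proportion between them differed between the groups. Normalized reads of Serpina3f per normalized read of Serpina3g were 0.659, 0.650, 0.602 and 0.623 in 5N, 6L, 6R and 10N, and 0.176, 0.226, 0.246 and 0.209 in 5L, 7N, 8N and 9L. The spread within a group was narrow, with means of 0.633 ± 0.0258 and 0.215 ± 0.0296 (SD, n = 4 each), although Serpina3g itself varied up to 2.58-fold in treated and 6.07-fold in control libraries. The proportion is taken within a library, where the scaling cancels out, and 5L, with 3 reads of Serpina3f, lay near the other controls in it. How far the windows shared by the 2 genes contribute to their likeness was not tested.

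**Figure D2:**
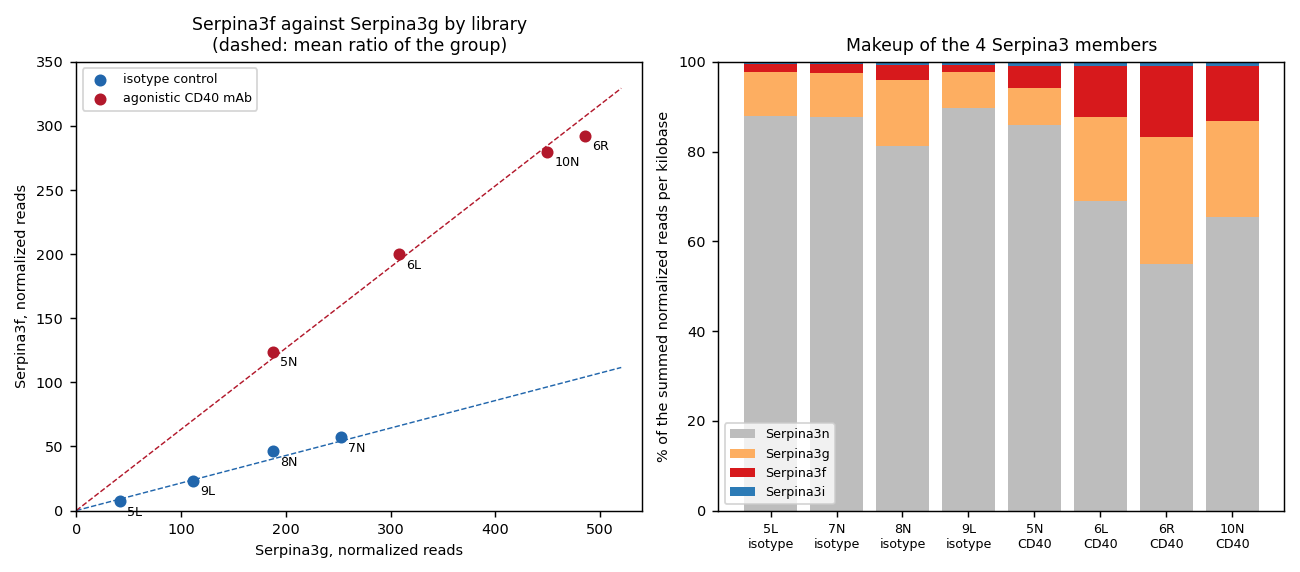
Left, Serpina3f against Serpina3g in normalized reads, each point 1 library, with the mean proportion of each group as a dashed line. Right, the share of each Serpina3 member in their summed normalized reads per kilobase. Treated libraries follow a line at 0.633 and controls one at 0.215, and Serpina3n makes up 55.0% to 85.8% of the sum in treated and 81.3% to 89.7% in control libraries.

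Per kilobase of exonic sequence, Serpina3n made up between 81.3% and 89.7% of the summed level of the 4 paralogs in control libraries and between 55.0% and 85.8% in treated ones. The share of Serpina3f was 1.53% to 3.32% in control libraries and 4.99% to 15.7% in treated ones, without overlap. Library 5N was the treated library closest to the controls, with 85.8% Serpina3n. It held the lowest Serpina3f and Serpina3g of its group and the highest Serpina3n and Saa3.

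Saa3, a serum amyloid A that macrophages, adipocytes and other cells make outside the liver, was at 1775, 823, 804 and 1271 with agonistic CD40 mAb and at 122, 578, 591 and 470 with isotype control. Every treated library lay above every control library. The means were 1168 ± 458 and 440 ± 219 (SD, n = 4 each), a ratio of 2.65 and a log2 fold change of 1.56 (SE 0.46), and the ratio was 2.14 without 5L. Set against Serpina3n in the same library, Saa3 was at 0.747 to 0.944 of its normalized reads in treated and 0.259 to 0.578 in control libraries.

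Lcn2 encodes lipocalin 2, which binds bacterial siderophores and so withholds iron. Its values were 98.5, 102, 62.6 and 70.3 in treated libraries and 7.33, 26.2, 38.1 and 38.4 in controls, and the groups did not overlap. The means were 83.3 ± 19.8 and 27.5 ± 14.6 (SD, n = 4 each), a ratio of 3.03 and a log2 fold change of 1.76 (SE 0.46). The control value of 5L rests on 3 reads and that of 7N on 11, and the ratio was 2.43 without 5L.

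Lbp, the lipopolysaccharide-binding protein that passes lipopolysaccharide on to CD14 and TLR4, was at 469, 467, 312 and 401 against 103, 293, 302 and 265. The lowest treated library, 6R, exceeded the highest control library, 8N, by 9.47 normalized reads only. The ratio of means was 1.71 (log2 fold change 0.87, SE 0.31). Without 5L it was 1.44 and below the threshold.

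Hp encodes haptoglobin, which binds free hemoglobin, and Cp encodes ceruloplasmin, a copper-carrying ferroxidase. Hp was at 633, 451, 638 and 1152 with agonistic CD40 mAb and at 130, 633, 554 and 339 with isotype control. Cp was at 467, 489, 370 and 409 against 130, 481, 291 and 294. The control libraries 7N and 8N reached into the treated group for Hp, and 7N did for Cp. The ratios of means were 1.73 for Hp (log2 fold change 0.94, SE 0.45) and 1.45 for Cp (log2 fold change 0.67, SE 0.32), and they were 1.41 and 1.22 without 5L. Hp met the threshold when 6L, 7N or 8N was left out, and Cp when 7N was. Cp overlaps Hps3 on the other strand, and 0.618% of its 50-base windows also occur in that gene. Reads from this small stretch cannot be told apart in libraries made without strand marking.

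Orm1, an orosomucoid that carries small molecules in plasma, was barely detected. It had 18 and 6 reads in 5N and 10N and 7 in 9L, and 0 in the other 5 libraries, so no comparison was made.

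**Figure D3:**
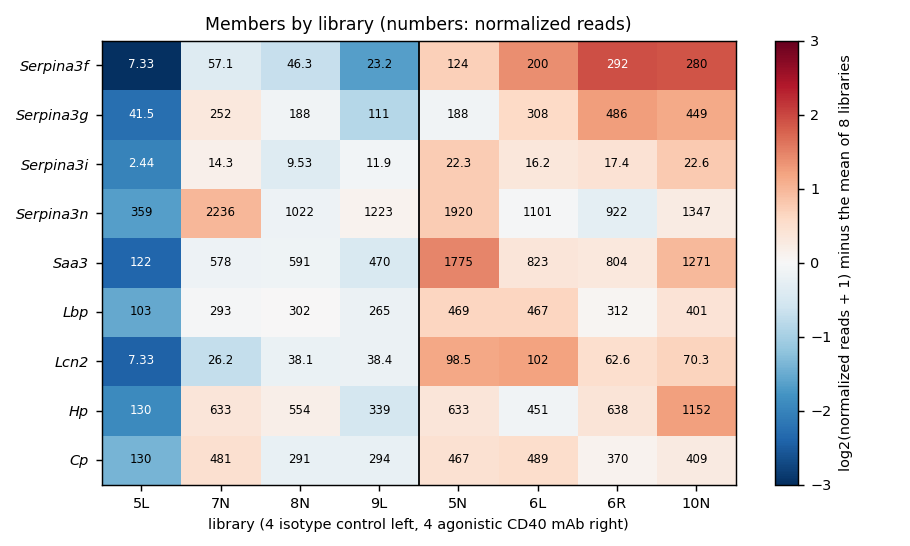
Each tested member (rows) in each library (columns), colored by log2(normalized reads + 1) minus the mean of the 8 libraries, with normalized reads as numbers. The column of 5L is low in every row. Within the treated group, Serpina3f and Serpina3g are highest in 6R and 10N, and Lcn2 and Lbp are highest in 5N and 6L.

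The treated libraries did not rank the members alike. Serpina3f and Serpina3g followed the order 6R, 10N, 6L, 5N. Lbp and Saa3 had 5N on top and 6R at the bottom, and Lcn2 had 6L on top and 6R at the bottom. Hp had 10N on top, with 1152 against 638 in the next library. Each of these orders rests on 4 libraries and was not tested. Among controls, 5L was lowest for all 9 members, 7N was highest for Serpina3f, Serpina3g, Serpina3i, Serpina3n, Hp and Cp, and 8N for Saa3 and Lbp.

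Per kilobase of exonic sequence, the mean levels with isotype control were 586 for Serpina3n, 258 for Hp, 169 for Saa3, 70.4 for Serpina3g, 49.8 for Lbp, 31.2 for Cp, 14.6 for Serpina3f, 10.5 for Lcn2, 4.29 for Serpina3i and 0.489 for Orm1. With agonistic CD40 mAb they were 641 for Serpina3n, 448 for Saa3, 447 for Hp, 170 for Serpina3g, 97.8 for Serpina3f, 85.3 for Lbp, 45.3 for Cp, 31.8 for Lcn2, 8.83 for Serpina3i and 1.81 for Orm1. Serpina3f stood below Cp in the control order and above Lbp in the treated order. In treated libraries the ranges of Serpina3n, Saa3 and Hp ran into each other, as did those of Serpina3g and Serpina3f, of Serpina3f and Lbp, and, narrowly, of Cp and Lcn2, so the order of these neighbors is not resolved. In control libraries the ranges of every pair of neighbors overlapped, and their order is that of the means only.

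The genes whose normalized reads followed Serpina3f most closely over the 8 libraries were Samhd1, Ciita, Gbp4, Ifi47 and Iigp1, with Pearson r between 0.978 and 0.984 on the log2 scale. After the group means were removed, their r over the same libraries lay between 0.915 and 0.987, and without 5L it lay between 0.960 and 0.989 with the groups left in. Ciita (47.8 against 4.26), Gbp4 (2046 against 594), Ifi47 (595 against 273) and Iigp1 (3119 against 966) had ratios of 2.18 to 11.2, and Samhd1 (913 against 670) one of 1.36. For Saa3 the closest genes were the members Serpina3i and Lbp, and C1ra (1277 against 721), 1500015O10Rik (11.3 against 4.08) and Ccl2 (743 against 483). Their r lay between 0.954 and 0.962, between 0.915 and 0.957 without the group means, and between 0.836 and 0.874 without 5L. All these genes share the 8 libraries, 4 of a treatment are too few to give an r within it, and the choice was made among all genes tested. Ciita, Serpina3i and 1500015O10Rik passed the limit on low values through the treated group alone, so their r depends in part on that limit.

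Other members of the families were mostly silent or showed no call. Of 6 further Serpina3 paralogs in the table, Serpina3h and Serpina3m passed the limit on low values and 0 met the threshold in limma, edgeR or DESeq2, nor was either at an unadjusted p under 0.05. Serpina3h was at 29.4, 9.05, 7.82 and 13.9 in treated and at 2.44, 71.4, 10.9 and 8.45 in control libraries. Serpina3m was at 23.0, 10.6, 3.01 and 20.3 against 0, 57.1, 6.81 and 2.60. In both genes the highest value belonged to the control library 7N, which was also the highest for Serpina3n. Serpina3m met the threshold without 7N (limma, log2 fold change 2.03, unadjusted p = 0.0416). Of 11 other serpins of clade A in the table, the clade of α1-antitrypsin, 0 passed the limit. Among serpins of other clades, 12 were tested and 1 rose, Serpinb9, the inhibitor of granzyme B, at 501 ± 78.0 against 315 ± 114 (limma, unadjusted p = 0.0152, adjusted p = 1.00). It was below the threshold without 5L, 6L or both 5L and 7N. Serpinb1a (436 against 299) and the C1 inhibitor Serping1 (4943 against 3300) did not meet it, although Serpinb1a did without 7N, 8N or 9L and Serping1 did without 7N. The median log2 fold change of these 12 was 0.07. It was -0.15 without 5L, where 0 of them were higher at the threshold and 1, Serpine2, was lower.

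Of 29 other positive acute-phase genes in the table, 11 were tested and 3 met the threshold, all of the complement system. C3, the central complement component, was at 8010, 6341, 4137 and 5632 in treated and at 1217, 2826, 2641 and 2773 in control libraries. Cfb, the complement factor B of the alternative pathway, was at 2827, 3159, 2248 and 2557 against 472, 1492, 1550 and 1071. In both genes the groups did not overlap (limma, unadjusted p = 4.96e-04 for C3 and 0.00146 for Cfb). C4b was at 2244 ± 498 against 1327 ± 490 (unadjusted p = 0.0130) and was below the threshold without 5L, alone or with 7N. None of the 3 passed adjustment over all genes tested, with adjusted p of 0.283, 0.386 and 1.00. The median log2 fold change of the 11 genes was 0.55, and -0.02 without 5L. Of the 29, 8 had no read in any library, and Saa1 averaged 1.59 and 0.990 normalized reads. Of 9 hepatocyte and negative acute-phase genes in the table, Alb, Ttr and Hnf4a had 0 reads in all 8 libraries. Rbp4, which other cells also make, alone passed the limit, at 27.0 ± 11.4 against 34.0 ± 26.8, and did not meet the threshold. The other 5 were below the limit, the highest being Apoa2 at 6.08 and 5.96 and Cyp2e1 at 3.81 and 3.94.

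Cytokines, receptors and relay proteins that are known to induce the acute-phase genes showed no call: of 19 tested, 0 met the threshold in limma, edgeR or DESeq2 and 0 had an unadjusted limma p under 0.05, and the median of their log2 fold changes was 0.12 (0.027 with 5L left out). The IL-6 receptor chain Il6st was at 3773 ± 658 against 3277 ± 670 and Tnfrsf1b, a TNF receptor, at 360 ± 36.4 against 289 ± 65.5. Tnf itself was at 10.6, 23.0, 25.9 and 22.6 in treated and at 2.44, 21.4, 2.72 and 19.5 in control libraries. It was below the threshold, and past it in limma without the control library 7N (unadjusted p = 0.0309) or 9L (unadjusted p = 0.0437). Il6, Stat3 and Socs3 are added for their role in the response, with their values known. Il6 was at 220, 352, 223 and 223 in treated libraries and at 108, 538, 140 and 251 in control ones, so 7N alone was above every treated library, and without it Il6 met the threshold (limma, log2 fold change 0.67, unadjusted p = 0.0430). Stat3, the transcription factor downstream of IL-6, was at 2128 ± 176 against 2021 ± 221, and its target Socs3 at 870 ± 157 against 776 ± 155.

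Of 15 tested transcription factors of the acute-phase and interferon response, 2 rose, the interferon regulatory factors Irf1 and Irf8, whereas Irf9 (504 against 422) did not meet the threshold. Irf1 was at 784, 941, 1082 and 1330 in treated and at 305, 454, 709 and 613 in control libraries. Irf8 was at 562 ± 131 against 331 ± 69.1. In both genes every treated library was above every control library (limma, unadjusted p = 0.00188 and 0.00303; adjusted p = 0.460 and 0.599). Irf8 was below the threshold when both 5L and 7N were left out. The median log2 fold change of the 15 was 0.28, and 0.12 without 5L.

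Among 12 tested binding partners and receptors of the members, 1 rose: Tlr2, a receptor for bacterial lipopeptides and serum amyloid A, at 65.1 ± 7.51 against 43.0 ± 6.29 (limma, unadjusted p = 0.0192, adjusted p = 1.00). It stood close to the limit, with a ratio of 1.51, and was below it without 5N, 6L, 5L or both 5L and 7N, after quantile normalization, and in edgeR and DESeq2. Slc40a1, the iron exporter ferroportin, was at 38.7 ± 3.93 against 53.8 ± 12.6 and did not meet the threshold. Among 15 candidate protease targets of these serpins, 5 were tested and 1 rose, cathepsin S (Ctss), at 58.8 ± 12.3 against 31.0 ± 14.1 (unadjusted p = 0.0111, adjusted p = 1.00). It was below the threshold with both 5L and 7N left out. The neutrophil protease Ctsg, a classical target of human SERPINA3, had 0 reads in all 8 libraries.

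**Figure D4:**
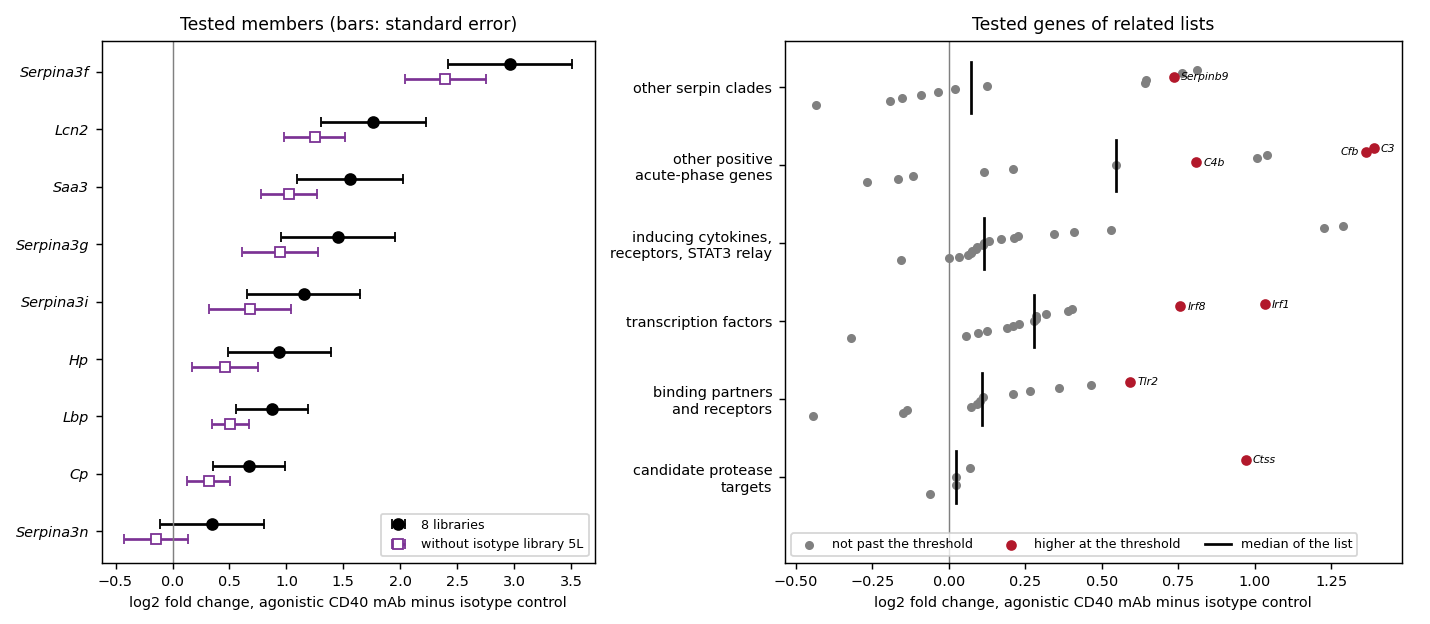
Left, log2 fold change of the 9 tested members with its standard error from 8 libraries (black) and without control library 5L (open squares). Right, log2 fold changes of the tested genes of 6 related lists, each point 1 gene, with the median of each list as a bar and genes higher at the threshold in red. Every member has a lower value without 5L, and Serpina3n crosses from 0.35 to -0.15.

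Markers of other cell types were summed in each library, since several of them make these proteins. Fibroblast markers summed to between 123922 and 252774 normalized reads in treated and between 90934 and 221872 in control libraries, the lowest being 5L. Most of this sum came from the collagen genes Col1a1, Col1a2 and Col3a1, and of 10 tested markers 0 met the threshold. Melanoma cell markers summed to between 45637 and 72721 and between 46466 and 116215, the highest being 5L (0 of 8 met it). Endothelial markers summed to between 60699 and 85428 and between 52028 and 71003 (0 of 15), and mural cell markers to between 18661 and 32126 and between 14010 and 44558 (0 of 10, and 3 lower without 5L). In the lists with 0 calls, 0 genes had an unadjusted limma p under 0.05, and edgeR and DESeq2 also called 0. Neutrophil markers, of interest because neutrophils hold much Lcn2, summed to between 15.1 and 53.5 and between 2.72 and 50.0 over 10 genes, Ly6g had 0 reads, and Ngp, Ltf and Camp were near 0. Macrophage markers summed to between 502 and 793 and between 406 and 868, with 1 of 10 past the threshold, Mrc1 (39.0 ± 2.94 against 22.4 ± 7.46, limma, unadjusted p = 0.0189, adjusted p = 1.00), which was lost without 8N. Pan-leukocyte markers summed to between 1429 and 1561 and between 1156 and 1611, most of it from 1 gene, Lcp1 (1283 to 1473 and 1083 to 1413). Ptprc, which encodes the CD45 that the sort selected against, was at 1.51 to 21.1 and 0 to 4.98. T and NK cell markers summed to between 1.89 and 12.6 and between 0 and 7.14.

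**Figure D5:**
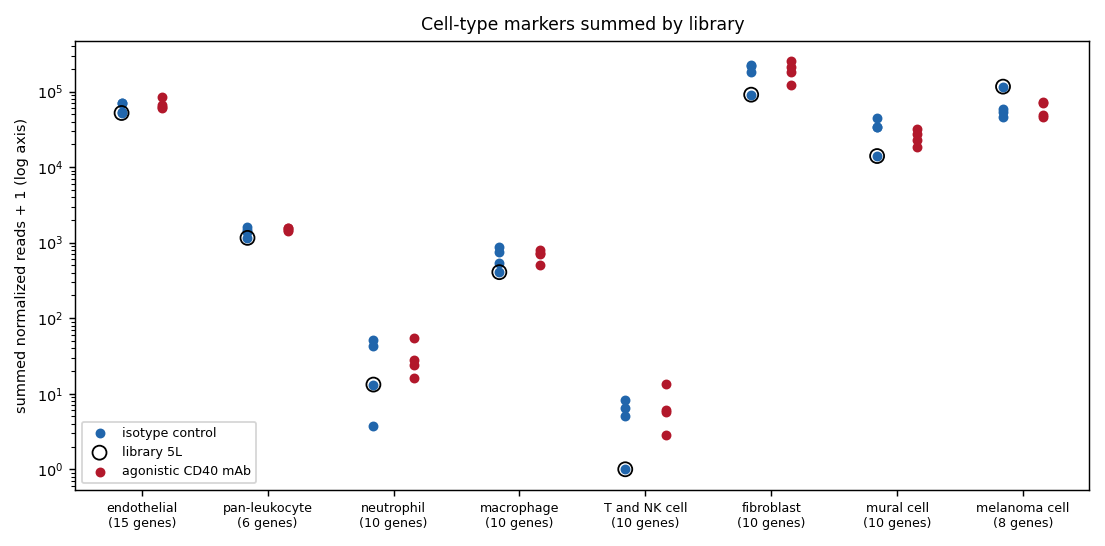
Normalized reads summed over the markers of 8 cell types in each library (log axis, 1 added), isotype control in blue and agonistic CD40 mAb in red, with 5L circled. Groups overlap for all 8 sums, and 5L is the lowest library in each sum except those of neutrophil and melanoma cell markers, and the highest for the latter.

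The members were also set against these sums, a scale added after the values had been seen. Per 1000 normalized reads of fibroblast markers, Serpina3f was at 0.588 to 2.36 in treated and 0.0806 to 0.257 in control libraries, Saa3 at 4.59 to 8.43 and 1.34 to 2.74, and Lcn2 at 0.278 to 0.569 and 0.0806 to 0.211. Lbp and Serpina3i also stayed without overlap on this scale, at 1.59 to 2.60 against 1.13 to 1.46 for Lbp. The scale is mostly one of collagen reads, from Col1a1, Col1a2 and Col3a1. Per read of Dcn, a smaller marker of the list, Lbp and Serpina3i were lower in treated 5N than in control 9L. Dcn was at 5099 and 2201 there, Lbp at 469 and 265, and Serpina3i at 22.3 and 11.9. The other members were not set against Dcn. Per 1000 normalized reads of endothelial markers, Serpina3f (1.85 to 4.68 against 0.141 to 1.05) and Lcn2 (1.00 to 1.47 against 0.141 to 0.548) did not overlap, and the other members did. The same held per 1000 normalized reads of melanoma cell markers, the sum in which 5L stood highest, with Serpina3f at 2.51 to 4.38 against 0.0631 to 1.23 and Lcn2 at 0.860 to 2.23 against 0.0631 to 0.719. On that scale Saa3, at 11.1 to 35.9 against 1.05 to 12.4, overlapped between the groups, as did Lbp and Serpina3i. Which of the sorted cells held the transcripts was not tested.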

How the data were processed

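RNA of CD45-CD31+ cells sorted from 8 tumors was sequenced with TruSeq RNA v2 libraries, which do not mark strand. Per the labels and the methods, TopHat2 was used by the authors to align reads to mm10 (the labels list Bowtie2 2.2.1, CASAVA 1.8 and Partek 6.6), genes were counted in Partek and normalized with DESeq2. The deposited signal is 1 normalized read count per gene and library. A floor, a trimming of low genes and a correction for harvest day, which the methods name, are not visible in the values: they hold zeros, and 99.9% are within 0.1 read of a whole multiple of 1 read. Harvest day per mouse is not in the labels used here, so it is in none of the fits, and its part in the differences was not tested. All 8 columns of values were used.

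Values were taken as log2(value + 1) and fitted in limma 3.58.1 (R 4.3.3) over 12969 genes, those above 10 normalized reads in the mean of at least 1 group, treatment being the only term and the variance following a trend with expression. P-values were adjusted by the Benjamini-Hochberg method. Fold changes are on this log2(value + 1) scale, where the added 1 understates low genes, whereas means, SDs and ratios are of normalized reads. As differences of mean logs, fold changes can also exceed the log of the ratio where 5L is very low. Serpina3n, at 0.35 beside a ratio of 1.09, is a case. The threshold was that of the study, a 1.5-fold ratio and an unadjusted p up to 0.05. At an adjusted p under 0.05, 2 genes passed. The same threshold on whole reads recovered from the deposited signal, with edgeR 4.0.16, called 150 genes higher and 47 lower. The fits were also run on simulated data with known fold changes, the outcome of which is not given here.

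The members and gene lists were chosen with earlier results of these data known. Named genes are the 10 members, per list up to 3 tested genes with the lowest p and 2 with the largest mean, and the 5 genes most like Serpina3f and Saa3 by Pearson r. Not every gene this rule names is printed, and an item of the lists is not reported here. Positions, lengths and shared 50-base windows came from GENCODE M21, and promoters from RefSeq (GRCm38.p6), which were matched for Serpina3f, Serpina3g, Serpina3i, Serpina3n, Saa3, Lcn2 and Cp and not for Lbp, Hp and Orm1. Coding sequences were aligned with MAFFT 7.526. Alternatives were pseudocounts of 0.1 and 10, all genes above 0, a limit of 50, limma without the trend, quantile normalization, size factors computed again, edgeR and DESeq2 1.42.0 on the recovered reads and the leaving out of each library. Leaving out both 5L and 7N, values per marker sum and r without 5L were added after seeing the data.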

Additional observations from a re-analysis of the deposited data

Results flagged for a closer look

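Of 94 groups of 4 libraries screened for a value far from the rest, 9 held one. The screen covered the members, the marker sums and most of the other genes printed, not among them Irf9, Lcp1 or Ptprc. Its limit lets through about 1 in 20 only for independent normal samples. The groups are the same 8 libraries over related genes, so 9 of 94 cannot be set against that share. Library 5L was far below the other controls for C3 (1217 normalized reads, next 2641), Il6st (2273, next 3595), Tnfrsf1b (191, next 317), Serpinb1a (137, next 328) and Ccl2 (196, next 570). The control library 7N was far above the others for Serpina3h (71.4, next 10.9) and Serpina3m (57.1, next 6.81). In the treated group, 6L stood out for Il6, at 352 with the next library at 223. For Orm1, 9L was the only control library above 0, at 1.52 normalized reads from 7 reads in the second-deepest library. With the other controls at 0, this flag was fixed in advance. What sets 5L and 7N apart was not tested.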

How the results depend on the processing

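The number of members higher at the threshold was 6 under all alternatives with 8 libraries except the limit of 50, which leaves out Serpina3i and gave 5. Leaving out 1 library gave 4 to 8: 4 without 5L, where Serpina3i and Lbp were lost, and 8 without 7N, where Hp and Cp were gained. Hp was also past the threshold without 6L or 8N, which each gave 6 since Serpina3i was lost. Without both 5L and 7N it was 4. Serpina3f, Serpina3g, Saa3 and Lcn2 were past the threshold under every alternative run, with log2 fold changes of 2.40 to 3.33, 0.94 to 1.80, 1.02 to 1.78 and 1.07 to 2.00. Over all genes, 331 were higher with no filter, and between 124 and 234 when 1 library was left out. The lower genes moved more: 58 with DESeq2, 47 with edgeR, 13 with the limit of 50, 57 without the trend, 93 with no filter, 63 after quantile normalization, 56 without 5L and 7N, and 27 to 123 with 1 library left out, the most without 5L and 52 without 9L. Signs turned for Serpina3n without 5L (-0.15, the other omissions giving up to 0.73), for Il6 with DESeq2 (-0.019), edgeR (-0.0049) and without 5L (-0.098, up to 0.67), and for Serpina3m with DESeq2 (-0.14). For Serpina3h they turned with DESeq2 (-0.54), edgeR (-0.38), a pseudocount of 10 (-0.071) and quantile normalization (-0.14), and without 5N (-0.24), 5L (-0.51) or 9L (-0.019), the omissions reaching 0.96. For Rbp4 they turned with DESeq2 (-0.36), edgeR (-0.40), a pseudocount of 10 (-0.048), quantile normalization (-0.064) and without both 5L and 7N (-0.30), and the omission of 1 library gave -0.60 to 0.52, below 0 without 6L (-0.13), 10N (-0.02), 5L or 8N (-0.048). The cause was not tested. Some genes printed above, such as Irf9, Lcp1 and Ptprc, were not followed gene by gene through the alternatives. No paired analysis was possible because the labels give mouse IDs, whose digits they do not explain, and no replicate numbers shared between groups. Depth limits Serpina3i, Lcn2 and Serpina3f in the controls 5L and 7N, which hold between 1 and 24 reads of each.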

Other observations

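Among control libraries, Serpina3n, Serpina3h, Serpina3m and Cp were all highest in 7N. Serpina3n was there at 2236 normalized reads and Cp at 481, against 1223 and 294 in the next control library. The same library was the highest control for Il6, at 538, and the highest of all 8 libraries for mural cell markers, at 44558, and macrophage markers, at 868. These values were noticed after the fact, and whether they belong together was not tested.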
